A study of Mus musculus with 12 samples.

Results

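Cells release ATP, UTP and their diphosphates through membrane channels, and these nucleotides are read outside the cell by P2 receptors. The P2X receptors are ATP-gated cation channels, and the P2Y receptors couple to G proteins. Ectoenzymes on the cell surface break the nucleotides down. ENTPD1 (CD39) removes phosphates from ATP step by step, and ENPP1 splits ATP into AMP and pyrophosphate. NT5E (CD73) turns AMP into adenosine, which then binds adenosine receptors such as ADORA2B. In tumors the CD39 and CD73 steps are known as a source of extracellular adenosine, which restrains immune cells. The genes described here are 10 of these receptors and enzymes, chosen by symbol out of 35521 annotated genes with a transcript in the data. They comprise the P2Y receptors P2ry6, P2ry1, P2ry2 and P2ry14, the P2X receptors P2rx4 and P2rx7, the adenosine receptor Adora2b, and the ectoenzymes Entpd1, Nt5e and Enpp1.

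4T1 cells are a line of mouse mammary carcinoma cells of BALB/c origin. RNA was sequenced from 3 groups with 4 libraries each, in order to compare 4T1 cells exposed to myeloid cells of the tumor with those exposed to myeloid cells of the spleen. The Tu-Gr1+CD11b+-primed 4T1 cells (group 4T1_MDSC_T) had been cocultured for 48 hours with Gr1+ cells from tumors of 4T1 tumor-bearing mice, the Spl-Gr1+CD11b+-primed 4T1 cells (group 4T1_MDSC_S) with Gr1+ cells from the spleens of such mice, and the parental 4T1 cells (group 4T1) were not primed. The Gr1+ cells were separated on magnetic columns at day 21 after tumor cell injection, according to the labels, and a membrane with 0.4 µm pores kept them apart from the tumor cells. The labels do not give the age or number of the mice, and they do not say whether equal replicate numbers share an animal or whether replicates of a group came from separate cocultures, so the p-values measure the spread between these libraries, which may be technical.

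The libraries held from 24566183 to 31637755 reads on transcripts. The labelled cell type was checked against its markers: all 6 markers of the mammary line, among them Epcam and Krt8, exceeded 1 CPM (counts scaled to library size with TMM factors) in every library. Their summed level differed between the groups without overlap, at 1665 to 2027 CPM in Tu-primed, 2071 to 2217 CPM in Spl-primed and 2323 to 3474 CPM in parental libraries. Most of this sum came from Krt8 (means 871, 1071 and 1491 CPM in the same order) and Krt18 (681, 838 and 1091 CPM). Cdh1 followed that order (63.3, 70.2 and 78.7 CPM). Epcam (76.5, 87.1 and 70.7 CPM) and Cldn4 (38.5, 38.0 and 29.1 CPM) were lowest in parental cells, and Krt19 (47.3, 40.8 and 47.2 CPM) in Spl-primed cells. Of 22 granulocyte and monocyte markers, Mpo, Elane, Camp, Ngp, Retnlg, Mmp8, Adgre1 and Tyrobp had no read in any library. The summed level of the 22 markers was 226 to 249 CPM in Tu-primed, 238 to 247 CPM in Spl-primed and 173 to 205 CPM in parental libraries. Nearly all of it came from Itgb2, a leukocyte integrin chain, and without Itgb2 the sums were 7.08 to 12.4, 5.56 to 7.44 and 5.91 to 7.21 CPM. Of the others, Ltf (4.16 ± 0.878, 1.86 ± 0.256 and 1.79 ± 0.220 CPM in Tu-primed, Spl-primed and parental cells, SD, n = 4), S100a8 (2.83 ± 0.910, 1.49 ± 0.319 and 1.84 ± 0.174 CPM) and Ly6c2 (0.488 ± 0.142, 0.101 ± 0.0584 and 0.0595 ± 0.0253 CPM) had their highest mean in Tu-primed cells, as did P2ry6 and Nt5e. So did Cxcr2 (2.40 ± 0.948, 2.16 ± 0.679 and 2.13 ± 0.347 CPM) and Lyz2 (0.124, 0.0607 and 0.0411 CPM). Ptprc (0.0882, 0.163 and 0.231 CPM in the same order), Itgam (0.0556, 0.118 and 0.0687 CPM) and Csf1r (0.109, 0.180 and 0.165 CPM) went the other way. They had their lowest mean in Tu-primed cells, each with at most 10 reads in a library. S100a9 had 1 read in parental library 2 and none elsewhere. Ly6g, Csf3r, Fcer1g and Spi1 had at most 3 reads in a library. Several of the 10 genes are also known from myeloid cells, and the part of such cells, or of the shift in Krt8 and Krt18, in the results was not tested. In bulk samples, fewer cells of a type and less RNA per cell cannot be told apart.

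Of the 10 genes, 8 passed the filter on low counts and were tested by edgeR's quasi-likelihood test over 12555 genes, with Benjamini-Hochberg adjustment and a threshold of 0.05. P2ry14, a receptor for UDP-glucose, had 2 reads in Tu-primed library 1, 1 read in Tu-primed library 4 and none elsewhere. Entpd1 had 1 read in Spl-primed library 4 and none elsewhere. A count of 0 allows up to 3 reads in a library, for counting error only, so neither gene could be compared at this depth. P2ry14 also shares its locus with Med12l on the opposite strand, which had at most 6 reads in a library.

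**Figure D1:**
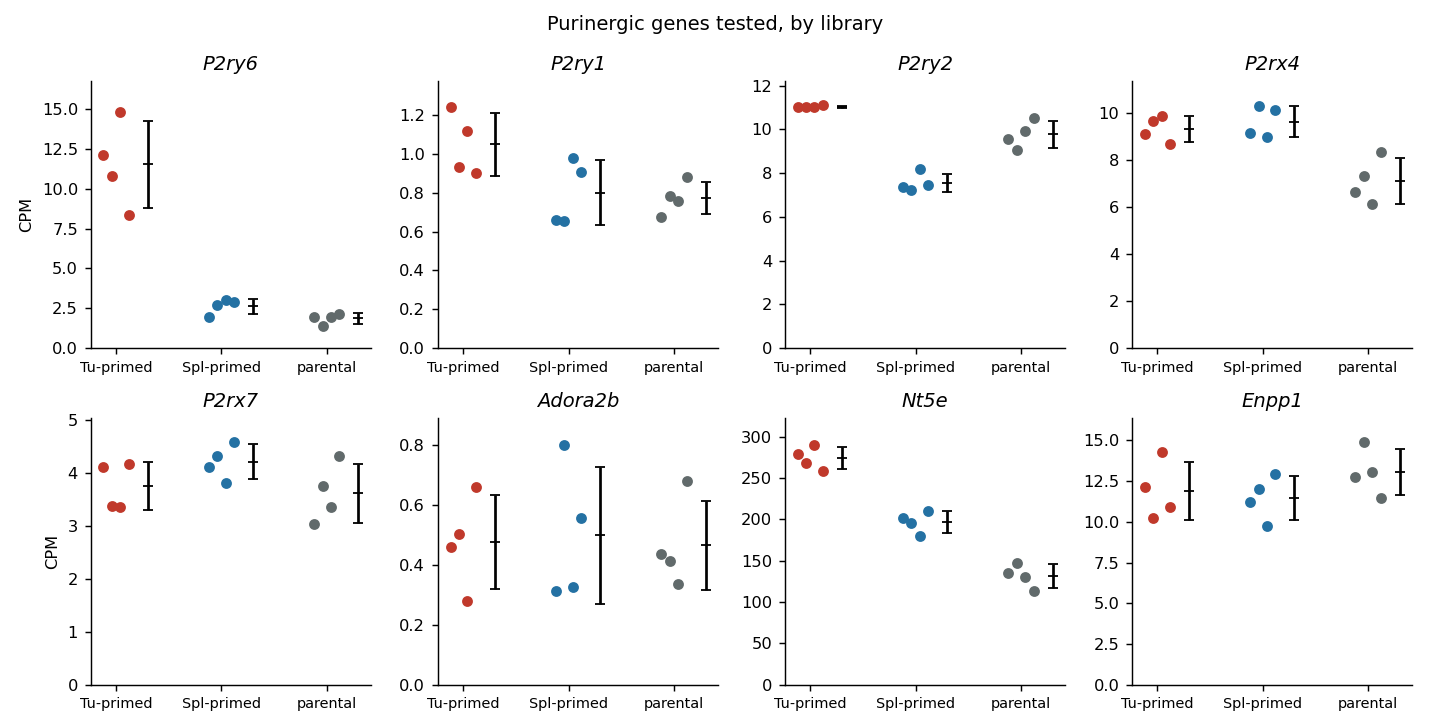
Levels of the 8 tested genes in CPM (linear axis from 0), with a point for each library and the mean with SD of 4 libraries as a bar, in Tu-primed, Spl-primed and parental 4T1 cells. All Tu-primed points lie above all others for P2ry6, P2ry2 and Nt5e, whereas the groups overlap for Enpp1, P2rx7 and Adora2b.

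P2ry6, a receptor for UDP that couples to Gq, was the gene of this set that differed most between the primed groups. It had 12.1, 10.8, 14.9 and 8.36 CPM in the 4 Tu-primed libraries. The Spl-primed libraries had 1.95, 2.69, 3.01 and 2.89 CPM. The parental libraries had 1.95, 1.4004, 1.97 and 2.16 CPM. Every Tu-primed library was thus above every other library, while the Spl-primed and parental libraries overlapped. The means were 11.5 ± 2.70 (SD, n = 4), 2.63 ± 0.478 and 1.87 ± 0.327 CPM. P2ry6 was 4.39-fold higher in Tu-primed than in Spl-primed cells, at 2.13 on the log2 scale (standard error, SE, 0.18, adjusted p = 1.35e-05, edgeR), which ranked 63 of 12555 genes. Against parental cells the log2 fold change was 2.62 (SE 0.19, adjusted p = 2.53e-07, edgeR).

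Between Spl-primed and parental cells P2ry6 had a log2 fold change of 0.48 with a 95% interval from 0.03 to 0.94, which did not pass the threshold (adjusted p = 0.0730, edgeR). This result rested on single libraries: the adjusted p was 0.0321 without Spl-primed library 1, 0.0498 without Tu-primed library 3 and 0.0438 without Tu-primed library 4. Tu-primed libraries enter this comparison through the shared estimate of the spread only. The gene lies on the minus strand of chromosome 7 (chr7:100937630-100974649, GRCm38, ENSMUSG00000048779). The protein-coding transcript P2ry6-201 carried a mean of 95.7% of its reads in Tu-primed, 96.2% in Spl-primed and 95.3% in parental libraries, so most of the difference lay on a single transcript.

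P2ry2, a Gq-coupled receptor for ATP and UTP, was highest in Tu-primed and lowest in Spl-primed cells. Tu-primed libraries had 11.001, 11.03, 11.01 and 11.11 CPM. Spl-primed libraries had 7.37, 7.23, 8.17 and 7.44 CPM. Parental libraries had 9.57, 9.06, 9.94 and 10.5 CPM. No group overlapped another, and the parental cells stood between the primed ones. The log2 fold change between Tu-primed and Spl-primed cells was 0.55 (SE 0.07, adjusted p = 0.000232, edgeR). P2ry2 was lower in Spl-primed than in parental cells, with a log2 fold change of -0.37 (SE 0.07, adjusted p = 0.000832, edgeR), and it was the sole tested gene of the set to be called lower in any comparison. The excess of Tu-primed over parental cells was smaller, with a log2 fold change of 0.18 (SE 0.07, adjusted p = 0.0422, edgeR). The call of Tu-primed against parental cells was lost under 15 of 22 alternatives, among them DESeq2 (adjusted p = 0.114), RLE factors (0.0674), transcript length offsets (0.173), no filter (0.108), the 8 libraries alone (0.0561) and a replicate block (0.0608). It was also lost on leaving out any Tu-primed library, parental library 1, 2 or 3, or Spl-primed library 2 or 4, with adjusted p up to 0.112.

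P2ry6 and P2ry2 are neighbours on chromosome 7, both on the minus strand, with P2ry2 at chr7:100996568-101012866 and 21918 bases between the annotated genes. Among the 4 other tested genes within 250 kb of the pair, 2 were called higher in Tu-primed than in Spl-primed cells and none lower. These were Arhgef17, with a log2 fold change of 0.55, and Fchsd2, with 0.38, against 7.63% of all tested genes called in either direction. P2rx7 and P2rx4 form a second pair of neighbours, on chromosome 5 with 16111 bases between them, and 0 of the 8 other tested genes within 250 kb of it were called between the primed groups by edgeR, DESeq2 or limma-voom, with 2 at an unadjusted p under 0.05. Against parental cells edgeR called 3 of these 8 higher and 4 lower in Tu-primed cells, and as many in Spl-primed cells. Of all tested genes, 59.2% and 48.2% were called in these comparisons.

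P2ry1, a Gq-coupled receptor for ADP, was detected at 18 to 35 reads per library. It had 1.24, 0.932, 1.12 and 0.902 CPM in Tu-primed, 0.659, 0.654, 0.980 and 0.905 CPM in Spl-primed, and 0.674, 0.783, 0.755 and 0.879 CPM in parental libraries. The Tu-primed libraries were all above the parental ones but overlapped the Spl-primed ones. Neither difference passed the test, with a log2 fold change of 0.44 against parental cells (95% interval from -0.02 to 0.91, adjusted p = 0.0948, edgeR) and 0.39 against Spl-primed cells (95% interval from -0.07 to 0.85, adjusted p = 0.300, edgeR). An antisense gene, Gm37035, is annotated across the start of P2ry1, and P2ry6 likewise has Gm44545 on its opposite strand. The library kit keeps strand, but the strand setting of the quantification is not given in the sources used here.

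Nt5e, which encodes the AMP-hydrolysing ectoenzyme CD73, was highest in Tu-primed, intermediate in Spl-primed and lowest in parental cells. Tu-primed libraries had 279, 269, 290 and 259 CPM. Spl-primed libraries had 202, 195, 180 and 211 CPM. Parental libraries had 135, 148, 130 and 113 CPM. The groups did not overlap in any of the comparisons, and the spread within each group was small beside the steps between them, with means of 274 ± 13.4, 197 ± 13.1 and 131 ± 14.3 CPM (SD, n = 4). Nt5e was 2.09-fold higher in Tu-primed than in parental cells (log2 fold change 1.06, SE 0.08, adjusted p = 2.21e-07, edgeR) and 1.498-fold higher in Spl-primed than in parental cells (log2 fold change 0.58, SE 0.08, adjusted p = 4.82e-05, edgeR). Tu-primed cells also exceeded Spl-primed cells 1.39-fold (log2 fold change 0.48, SE 0.08, adjusted p = 0.00119, edgeR). Over every alternative normalization, filter, tool and left-out library, the log2 fold change between the primed groups lay between 0.45 and 0.51. Nt5e lies at chr9:88327197-88372092 on the plus strand, and Nt5e-201, its protein-coding transcript, carried over 99% of its reads in each group.

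Entpd1, whose product can supply AMP to CD73, stood at the floor with the read given above. Among its surface relatives, Entpd2 had 5 reads and Entpd8 1 read over the 12 libraries. Entpd3, a neural and islet member of the family, was tested, with 3.52 ± 0.373 CPM in Tu-primed, 4.26 ± 0.605 CPM in Spl-primed and 3.55 ± 0.847 CPM in parental cells (SD, n = 4), and it was not called in any comparison. Enpp1, a surface enzyme that splits ATP into AMP and pyrophosphate, had 12.1, 10.3, 14.3 and 10.9 CPM in Tu-primed, 11.2, 12.02, 9.77 and 12.9 CPM in Spl-primed, and 12.7, 14.9, 13.04 and 11.5 CPM in parental libraries. The Enpp1 values of the groups overlapped throughout. Its log2 fold changes were 0.05 between the primed groups (95% interval from -0.19 to 0.30), -0.13 for Tu-primed against parental cells (from -0.38 to 0.12) and -0.18 for Spl-primed against parental cells (from -0.43 to 0.07). Against parental cells the upper bounds for Enpp1 lay below the values of Nt5e, 1.06 and 0.58.

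P2rx4, an ATP-gated channel found on lysosomes and at the cell surface, was higher after either kind of priming. It had 9.12, 9.67, 9.89 and 8.68 CPM in Tu-primed libraries. Spl-primed libraries had 9.16, 10.3, 8.97 and 10.1 CPM. Parental libraries had 6.64, 7.33, 6.12 and 8.35 CPM. All primed libraries were above all parental ones, and the primed groups overlapped. The log2 fold change against parental cells was 0.39 (SE 0.10, adjusted p = 0.00339, edgeR) in Tu-primed and 0.44 (SE 0.10, adjusted p = 0.00225, edgeR) in Spl-primed cells. Between the primed groups it was -0.05, with a 95% interval from -0.25 to 0.16. With offsets for transcript length the changes against parental cells were larger, 0.64 in Tu-primed and 0.79 in Spl-primed cells.

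The reads of P2rx4 were also divided differently among its transcripts. Transcripts annotated with a retained intron (P2rx4-203, P2rx4-207 and P2rx4-208) held 9.41% ± 1.14 (SD, n = 4, range 8.65 to 11.1) of its reads in Tu-primed and 11.5% ± 0.765 (range 10.4 to 12.1) in Spl-primed libraries. In parental libraries they held 1.86% ± 0.877 (range 0.685 to 2.59), below every primed library. The same class of transcripts took 3.38% of all reads in Tu-primed, 3.35% in Spl-primed and 2.13% in parental libraries, so the share differed between the groups across the whole library as well, and its part in the P2rx4 values was not tested. From protein-coding transcripts alone P2rx4 was still higher in Tu-primed (log2 fold change 0.39, adjusted p = 0.0134, edgeR) and in Spl-primed cells (log2 fold change 0.36, adjusted p = 0.0265, edgeR) than in parental cells. These shares are estimates that divide reads among overlapping transcripts, and they were not tested.

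**Figure D2:**
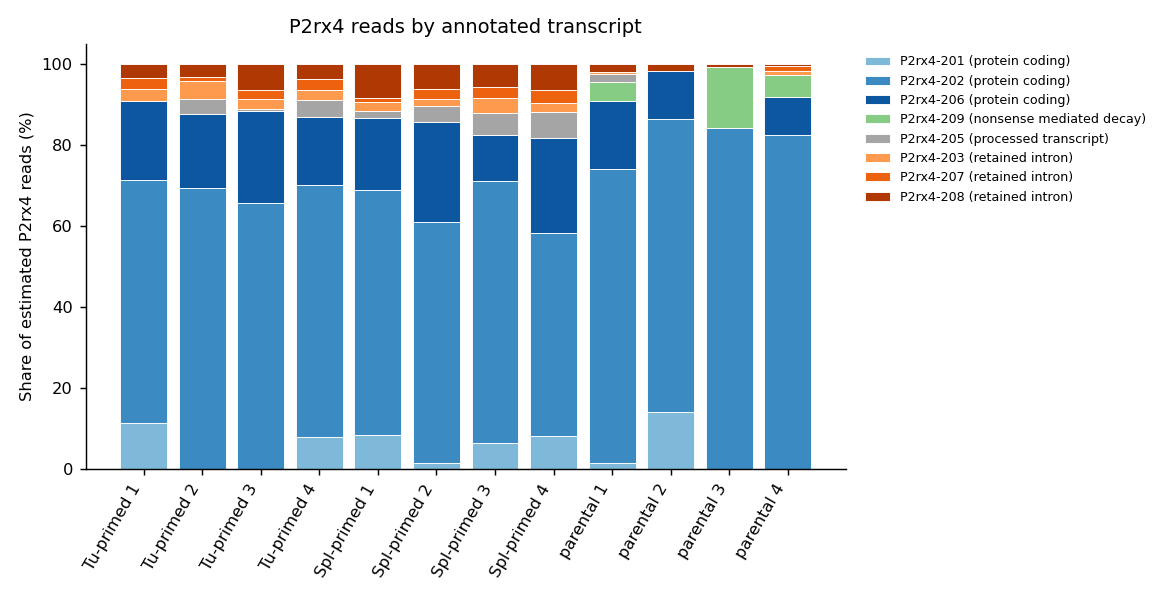
Share of the estimated P2rx4 reads (percent, stacked to 100) on each annotated transcript, with a bar for each of the 12 libraries and the 3 retained-intron transcripts in orange shades at the top. The orange part reaches at least 8.65% in each primed library and at most 2.59% in each parental library.

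P2rx7, an ATP-gated channel known for pore formation and inflammasome activation, was not called in any comparison. It had 4.12, 3.38, 3.36 and 4.16 CPM in Tu-primed, 4.11, 4.32, 3.81 and 4.59 CPM in Spl-primed, and 3.03, 3.75, 3.35 and 4.32 CPM in parental libraries, with overlap between all groups. The largest of its log2 fold changes was 0.22 for Spl-primed against parental cells (95% interval from -0.07 to 0.51, adjusted p = 0.187, edgeR), and with transcript length offsets it was 0.69 (adjusted p = 0.206). Adora2b, the low-affinity Gs-coupled adenosine receptor, had 8 to 22 reads per library and means of 0.476 ± 0.156, 0.499 ± 0.229 and 0.466 ± 0.149 CPM (SD, n = 4) in Tu-primed, Spl-primed and parental cells. Its 95% interval between the primed groups ran from -0.84 to 0.72 on the log2 scale, so a difference within these bounds is not excluded at this depth.

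**Figure D3:**
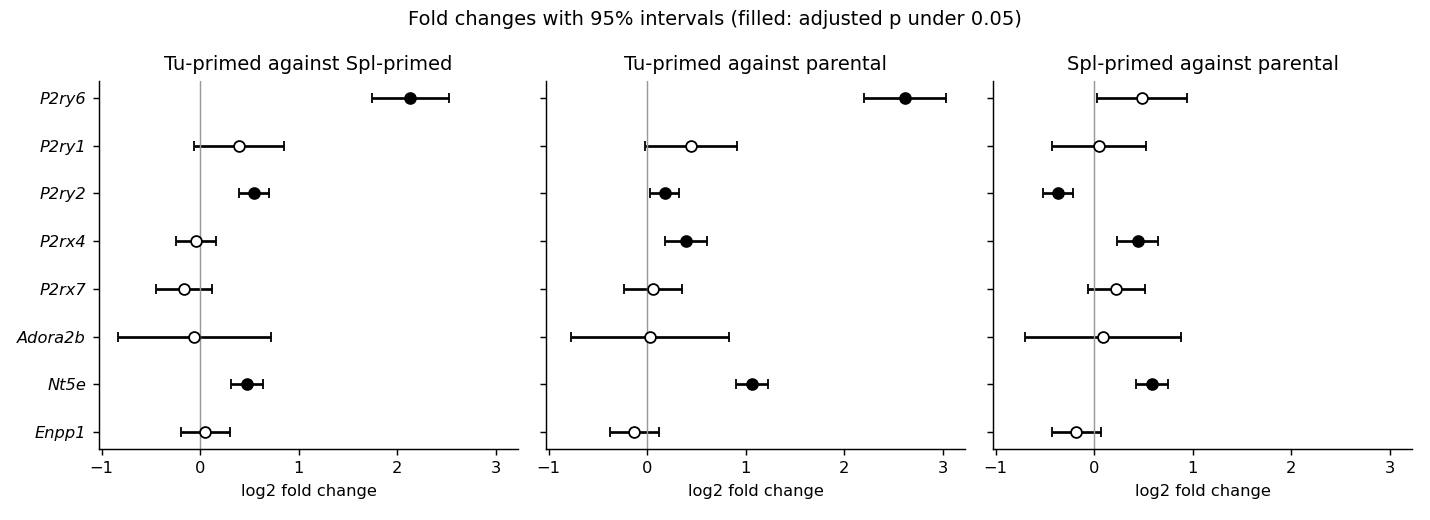
Log2 fold changes of the 8 tested genes with 95% intervals from edgeR's quasi-likelihood fit, in a panel for each comparison, with filled points where the adjusted p was under 0.05. P2ry6 stands at 2.13 and 2.62 in the comparisons of Tu-primed cells, and P2ry2 is the sole filled point below 0, in Spl-primed against parental cells.

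In the comparison of Tu-primed with Spl-primed cells, 3 of the 8 tested genes were higher and 0 lower, where 7.63% of all 12555 tested genes were called, 4.66% higher and 2.97% lower. The median log2 fold change of the 8 genes was 0.22, beside -0.01 for all tested genes. The same 3 genes, P2ry6, P2ry2 and Nt5e, had groups that did not overlap, which 17.0% of all tested genes had in either direction. In Tu-primed against parental cells, 4 of 8 were higher and 0 lower, where 59.2% of all tested genes were called (31.2% higher and 28.0% lower), a background near the share of the set. Groups did not overlap for 5 of the 8, P2ry1 included, and for 55.5% of all tested genes. In Spl-primed against parental cells, 2 were higher and 1 lower, where 48.2% of all tested genes were called (25.7% higher and 22.5% lower), and 3 of 8 had groups without overlap against 39.6%. With a log2 fold change beyond 1 also required, 1 of the 8 was called between the primed groups, 2 in Tu-primed and 0 in Spl-primed against parental cells, where 1.33%, 7.56% and 4.59% of all tested genes were. These 3 comparisons share their libraries in pairs and are not independent of each other.

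Levels between genes were compared per transcript length, as TPM, the deposited level scaled for transcript length, and within a group only, because transcripts under 100 effective bases took 16.7% to 21.8% of all TPM in parental libraries and 10.4% to 13.1% in primed ones. Nt5e was the highest of the 10 in each group, with 101 ± 5.94 TPM in Tu-primed, 69.9 ± 7.09 TPM in Spl-primed and 35.3 ± 7.43 TPM in parental cells (SD, n = 4). P2rx4 came next in each group, with 11.5, 12.3 and 5.32 TPM. In Tu-primed cells P2ry6 was the third at 10.5 ± 2.45 TPM, and its libraries overlapped those of P2rx4. It was the sixth in Spl-primed cells at 2.24 ± 0.349 TPM, where it overlapped P2rx7 above it, and the fifth in parental cells at 1.24 ± 0.127 TPM, where it overlapped P2rx7 below it. P2ry2 and Enpp1 followed each other in every group and overlapped in Spl-primed and parental cells, but not in Tu-primed cells, where P2ry2 had 6.50 and Enpp1 4.23 TPM. P2ry1 and Adora2b lay below 1 TPM in every library and overlapped each other.

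**Figure D4:**
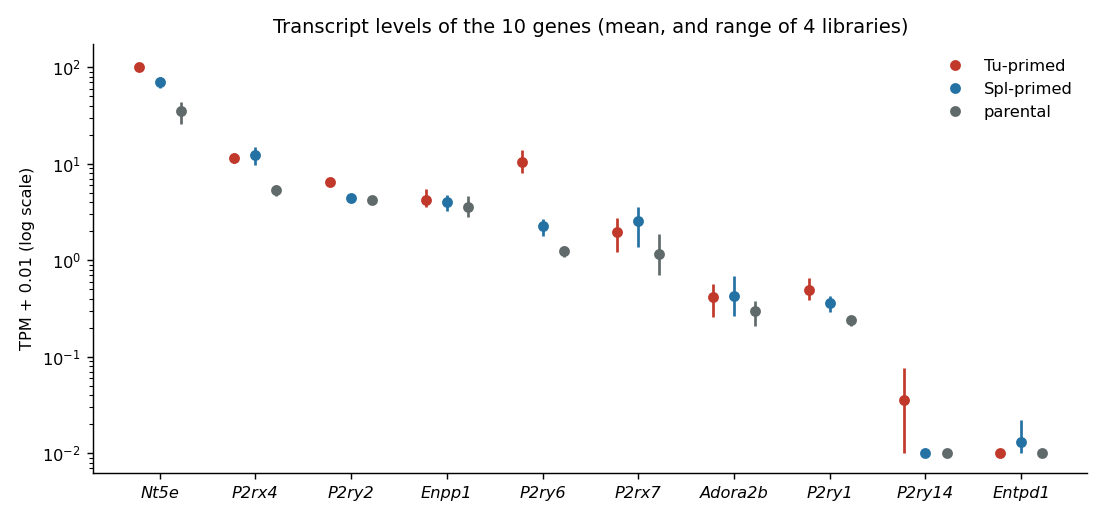
TPM of the 10 genes on a log axis (0.01 added so that 0 can be drawn), with the mean of 4 libraries as a point and their lowest and highest values as a line. Nt5e is highest in each group, P2ry14 and Entpd1 lie at the floor, and P2ry6 in Tu-primed cells reaches the level of P2rx4.

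Among all tested genes, those whose log2 CPM ran most like that of P2ry6 over the 12 libraries were Muc1, with a Pearson correlation of 0.99, and Rdh10, Ifi27, Casp12 and Phyh, each with 0.98. The libraries fall into 3 groups, so these values largely describe differences between groups and carry no test. Muc1, a membrane mucin, had 6.58 ± 2.26, 0.718 ± 0.196 and 0.506 ± 0.0476 CPM, and Ifi27, an interferon-stimulated gene, had 129 ± 24.6, 22.01 ± 2.47 and 16.9 ± 2.42 CPM in Tu-primed, Spl-primed and parental cells (SD, n = 4). Rdh10, a retinol dehydrogenase, followed the same order over a narrow range, 37.0 ± 1.65, 31.6 ± 0.976 and 30.4 ± 0.646 CPM. Over the same libraries the correlation with P2ry6 was 0.86 for Nt5e, 0.77 for P2ry1, 0.61 for P2ry2, 0.51 for P2rx4, -0.02 for Adora2b, -0.09 for P2rx7 and -0.17 for Enpp1.

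Promoter sequence was available for 9 of the 10 genes (RefSeq, GRCm38.p6), and P2ry6 was not among them. The 250 bases before a start are shown for P2ry2 and P2rx4, which were called with different patterns over the groups, with matches to the motifs searched in capitals.
P2ry2: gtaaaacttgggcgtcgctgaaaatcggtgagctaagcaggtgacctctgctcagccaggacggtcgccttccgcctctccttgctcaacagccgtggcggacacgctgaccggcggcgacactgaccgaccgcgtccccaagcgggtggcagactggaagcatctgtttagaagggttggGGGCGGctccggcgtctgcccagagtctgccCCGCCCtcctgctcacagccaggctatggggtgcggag
P2rx4: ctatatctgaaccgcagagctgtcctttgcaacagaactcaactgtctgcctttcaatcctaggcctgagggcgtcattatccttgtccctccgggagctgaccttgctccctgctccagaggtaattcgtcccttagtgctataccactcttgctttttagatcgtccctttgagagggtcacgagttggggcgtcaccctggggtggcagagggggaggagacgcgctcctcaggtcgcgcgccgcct
The P2ry2 window is chr7:101012054-101012303 on the minus strand and the P2rx4 window chr5:122707294-122707543 on the plus strand. Both strands were searched for the interferon-stimulated response element (a pair of GAAA half-sites 2 bases apart), the GAS element (TTCNNNGAA), the AP-1 site (TGANTCA), the CRE (TGACGTCA), the hypoxia response core (ACGTG) and the GC box (GGGCGG). The P2ry2 window shown, before the start nearest to P2ry2-204, held 2 GC boxes, which do not overlap each other, and none of the other motifs. It lies within the annotated span of another transcript, P2ry2-203 (chr7:100999032-101012866), which had 1 read in Tu-primed library 3 and none elsewhere. A second P2ry2 window, before the start of P2ry2-201 (chr7:101011999-101012248), held 4 GC boxes and 2 overlapping matches of the hypoxia core on opposite strands, and it is not printed because it takes in exon bases of P2ry2-204. The P2rx4 window held none of the 6. Of all 32851 promoter windows of this length, 32.7% held a GC box, 16.6% the hypoxia core, 7.02% the GAS element, 6.75% the AP-1 site, 2.98% the interferon-stimulated response element and 1.55% the CRE. A match is a description of the letters and not a bound site. The window listed for Nt5e lies inside the first exon of Nt5e-201 and is not shown.

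The wider pathway was described by a list of 76 genes in 9 roles, of which 47 were tested. Between Tu-primed and Spl-primed cells, 5 of the 47 were higher and 2 lower. Without the 10 genes above, 2 of 39 were higher and 2 lower (10.3%, against 7.63% of all tested genes), with a median log2 fold change of -0.04. Against parental cells, 7 of these 39 were higher and 10 lower in Tu-primed cells (43.6% against 59.2%), and 10 were higher and 12 lower in Spl-primed cells (against 48.2%).

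Among the other receptors, P2ry12, the ADP receptor known from platelets and microglia, was higher in Tu-primed than in parental cells, at 1.38 ± 0.0571 against 0.519 ± 0.223 CPM (SD, n = 4, log2 fold change 1.41, adjusted p = 0.000513, edgeR), and in Spl-primed than in parental cells (log2 fold change 0.75, adjusted p = 0.0403, edgeR). P2ry12 had 9 to 41 reads per library, and its Spl-primed libraries (0.626 to 1.07 CPM) overlapped the parental ones (0.360 to 0.839 CPM). The call in Spl-primed cells was not followed through the alternatives. P2ry12 was not called between the primed groups (0.67, adjusted p = 0.127, edgeR), and like P2ry14 it lies within Med12l on the opposite strand. Adora1, a Gi-coupled adenosine receptor, also passed the filter and was not called in any comparison (adjusted p from 0.463 to 0.974, edgeR). The remaining receptors of the list, which were P2ry4, P2ry10, P2ry13, P2rx1, P2rx2, P2rx3, P2rx5, P2rx6, Adora2a and Adora3, had at most 9 reads in a library.

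Of the 5 tested ectoenzymes outside the set, Bst1, Cd38 and Enpp2 were higher in Tu-primed and in Spl-primed than in parental cells (60% called, against 59.2% and 48.2% of all tested genes), and Entpd3 and Alpl were not called. Bst1 and Cd38, which consume NAD+ outside the cell, were higher in Tu-primed than in parental cells, Bst1 at 5.28 ± 0.460 against 2.17 ± 0.446 CPM (log2 fold change 1.29, adjusted p = 4.95e-05, edgeR) and Cd38 at 29.3 ± 2.97 against 20.6 ± 3.37 CPM (log2 fold change 0.51, adjusted p = 0.000987, edgeR). Bst1 was also higher than in Spl-primed cells, by 0.79 on the log2 scale (adjusted p = 0.0133, edgeR), a call that was lost with transcript length offsets (adjusted p = 0.186), with protein-coding transcripts alone (0.0954) and without Tu-primed library 1 (0.0512). Enpp2, the secreted enzyme autotaxin, was higher in Spl-primed (0.72) and Tu-primed cells (0.55) than in parental cells on the log2 scale.

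Of the genes that transport adenosine or break it down, 4 of the 7 tested were lower and 0 higher in Tu-primed than in parental cells (57.1% called, against 59.2% of all tested genes), and 4 were lower and 1 higher in Spl-primed than in parental cells (71.4%, against 48.2%), where the call of Adk was lost with transcript length offsets (adjusted p = 0.737). In Tu-primed cells the lower ones were Ada, adenosine deaminase, with a log2 fold change of -0.77 (adjusted p = 0.000526, edgeR), Adk, adenosine kinase, with -0.40 (adjusted p = 3.18e-05, edgeR), Slc29a1, the equilibrative transporter ENT1, with -0.43 (adjusted p = 3.12e-05, edgeR), and Slc29a3, a transporter of lysosomes, with -0.35 (adjusted p = 0.00104, edgeR). Against Spl-primed cells Slc29a1 was lower in Tu-primed cells by -0.28 (adjusted p = 0.00839, edgeR), which was lost with transcript length offsets (adjusted p = 0.0737). Adk was lower by -0.21 (adjusted p = 0.0326, edgeR), a call lost under 10 of 22 alternatives, with adjusted p up to 0.124.

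Of the 8 tested genes of nucleotide release, 1 was higher and 2 lower in Tu-primed than in parental cells (37.5% called, against 59.2% of all tested genes). In Spl-primed cells 1 was higher and 4 lower than in parental cells (62.5%, against 48.2%). Between Tu-primed and Spl-primed cells 1 was higher and 0 lower (12.5%, against 7.63%). Gja1, the connexin 43 gene, was higher in Tu-primed cells at 458 ± 12.6 CPM than in Spl-primed cells at 349 ± 11.6 CPM (log2 fold change 0.39, adjusted p = 0.0272, edgeR) and in parental cells at 291 ± 54.8 CPM (0.66, adjusted p = 8.64e-05, edgeR). The first of these calls was lost on leaving out Tu-primed library 1, 2 or 3 or Spl-primed library 1 or 2, with adjusted p up to 0.0802, and with transcript length offsets (0.0594). Lrrc8a, the subunit that volume-regulated anion channels require, was lower in Tu-primed (-0.44) and Spl-primed cells (-0.36) than in parental cells, and Lrrc8d was lower in Spl-primed cells (-0.20). Panx1, the ATP-releasing pannexin, was lower in Tu-primed than in parental cells by -0.59 on the log2 scale (adjusted p = 0.00146, edgeR), but from protein-coding transcripts alone its value was 0.17 (adjusted p = 0.602). Its means were 4.47 ± 0.290 CPM in Tu-primed, 5.05 ± 0.575 CPM in Spl-primed and 6.73 ± 1.14 CPM in parental cells (SD, n = 4), so Spl-primed cells also had a lower mean than parental cells.

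Downstream of the receptors, genes were called in both directions, 4 of 5 tested in the Gs arm in each comparison with parental cells, where 59.2% (Tu-primed) and 48.2% (Spl-primed) of all tested genes were called. In the Gs arm, with log2 fold changes of Tu-primed and then Spl-primed against parental cells, Adcy6 was higher (0.95 and 0.88), as was Adcy7 (0.29 and 0.33), while Adcy3 (-0.47 and -0.43) and the Gs subunit gene Gnas (-0.30 and -0.37) were lower. In the Gq arm, to which P2ry6, P2ry2 and P2ry1 couple, 2 of 8 tested genes were called in each comparison with parental cells, Gna11 (-0.32 and -0.18) and the inositol trisphosphate receptor gene Itpr2 (-0.43 and -0.67), both lower. With transcript length offsets the calls of Gna11 in Spl-primed cells (-0.087, adjusted p = 0.265) and of Itpr2 in Tu-primed cells (adjusted p = 0.0551) were lost. Between Tu-primed and Spl-primed cells 0 of the 13 tested genes of these arms were called by edgeR, DESeq2 or limma-voom, while 3 had an unadjusted p under 0.05 by each tool and 7.63% of all tested genes were called. Of the 4 intracellular relatives of Entpd1, Entpd4 (0.19) and Entpd7 (0.34) were higher in Spl-primed than in parental cells. The call of Entpd4 was lost without Spl-primed library 4 (adjusted p = 0.0665), with transcript length offsets (0.0581), no filter (0.0704), the 8 libraries alone (0.0513) and protein-coding transcripts alone (0.0875), and that of Entpd7 with transcript length offsets (0.0990). In the other comparisons 0 of the 4 were called by edgeR, DESeq2 or limma-voom, with 1 at an unadjusted p under 0.05 in Tu-primed against parental cells and 0 between the primed groups.

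**Figure D5:**
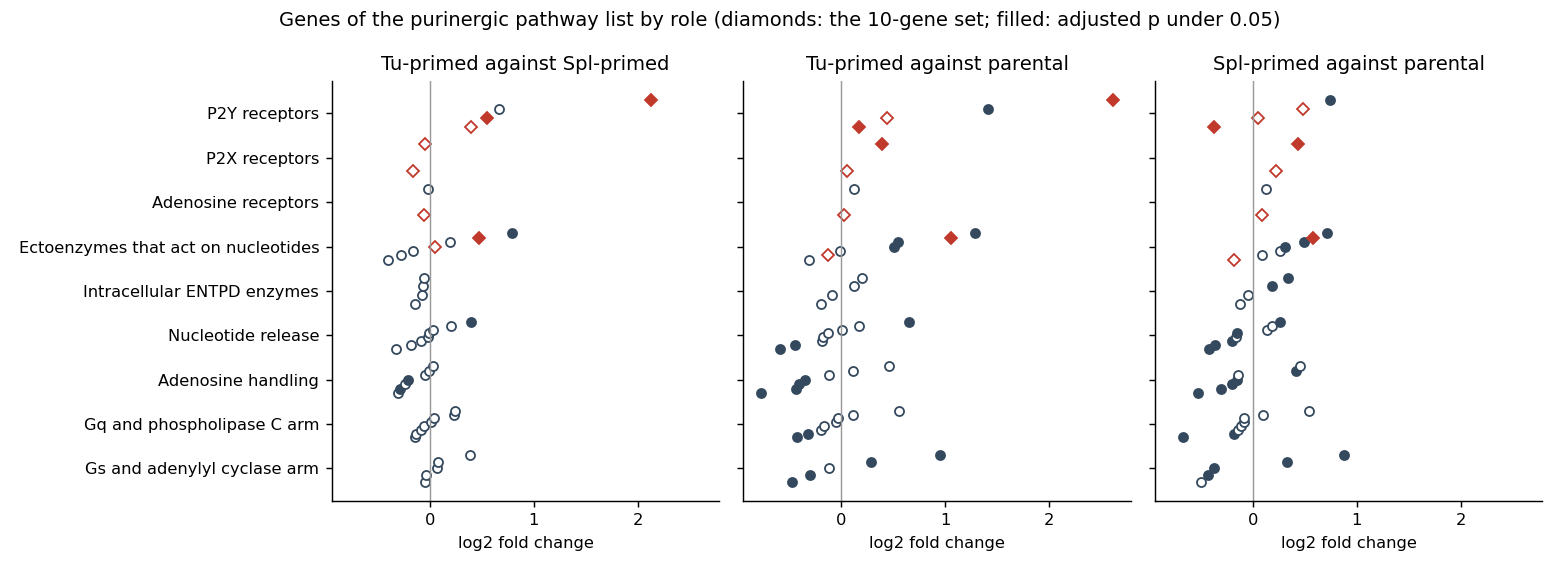
Log2 fold changes of the 47 tested genes of the pathway list by role, in a panel for each comparison, with diamonds for the 8 tested genes of the set and filled symbols where the adjusted p was under 0.05. Between the primed groups the filled symbols are the P2Y receptors P2ry6 and P2ry2, the ectoenzymes Nt5e and Bst1, Gja1, and on the lower side Adk and Slc29a1.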

How the data were processed

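RNA was sequenced from 12 libraries in 3 groups with a stranded kit. Per the labels, the authors' processing used Trimmomatic 0.39 and Salmon 1.4.0 with GRCm38, and their role and settings are not given in the sources used here. The deposited tables hold an estimated count, not normalized, and a TPM value per Ensembl transcript. A deposited table of normalized values per gene was not used. Estimated counts were summed per gene with GENCODE M21 (116021 of 117081 transcripts matched, and the others held 0.326% to 0.419% of reads) and rounded.

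Genes were kept by filterByExpr, scaled by TMM (factors 0.88 to 1.05) and tested with edgeR 4.0.16 in R 4.3.3 by the quasi-likelihood test in 1 fit of 12 libraries, with Benjamini-Hochberg adjustment over the 12555 genes. The SE is the fold change on the log2 scale over the square root of F, and log2 CPM used a prior count of 2. Libraries of a group differed from each other by more than sampling noise (chi-square over its degrees of freedom at least 3.43). The fit was tested on simulated data. Tables and figures used Python 3.11.15, pandas 2.3.3 and matplotlib 3.10.9.

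Alternatives were DESeq2 1.42.0, limma-voom (limma 3.58.1), RLE and upper-quartile factors, transcript length offsets, no filter, a filter of 10 counts in every library, the 8 libraries compared, a replicate block, protein-coding transcripts, a threshold of 0.01, a further cutoff of 1 on the size of the log2 fold change, and each library left out. Beyond the 10 genes, up to 4 genes per role of the list were named, those with the smallest p among genes called whose groups do not overlap, and for P2ry6 the 5 genes of highest correlation. Neighbouring genes, untested list genes and Entpd3, Alpl, Adora1 and single markers were named after their values were seen. The genes and lists were chosen with earlier results of these data known.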

Additional observations from a re-analysis of the deposited data

Results flagged for a closer look

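In each group of 4 libraries, the 28 tested genes named from the set and its pathway list were searched for a library far from the others (Dixon's test at its 95% critical value), which chance gives in about 1 group in 20. This was met in 5 of 84 groups, in none of the 8 tested genes of the set. Entpd4 was at 27.8 CPM in Tu-primed library 3 and at 30.2 CPM in Spl-primed library 4, and without the latter its difference between Spl-primed and parental cells was not called (adjusted p = 0.0665, edgeR). Entpd7 was at 7.07 CPM in parental library 4. Gja1 was at 439.5 CPM in Tu-primed library 4, and Lrrc8d at 137.8 CPM in Spl-primed library 1.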

How the results depend on the processing

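With a change beyond 1 on the log2 scale also required, the genes of the set called numbered 1 (of 3) between the primed groups, 2 (of 4) in Tu-primed and 0 (of 3) in Spl-primed against parental cells, and the pathway genes 1 (of 7), 4 (of 21) and 0 (of 25). Of all tested genes, 1.33%, 7.56% and 4.59% were called so. At an adjusted p under 0.01 the pathway genes called were 4 between the primed groups and 14 in Spl-primed against parental cells, and with transcript length offsets 3 and 16. With the offsets, calls over all 12555 tested genes fell as well. Between the primed groups they went from 585 higher and 373 lower to 350 and 146. In Spl-primed against parental cells they went from 3225 and 2828 to 2592 and 2159. Calls over all tested genes at 0.01 were not counted. Leaving out each library gave 3 genes of the set between the primed groups and 3 to 4 in each comparison with parental cells, and 5 to 8, 20 to 25 and 18 to 24 pathway genes. Over all tested genes these fits called 402 to 662 higher and 118 to 531 lower between the primed groups. Against parental cells they called 3512 to 4172 higher and 3150 to 3796 lower in Tu-primed, and 2759 to 3382 and 2380 to 3269 in Spl-primed cells. With only protein-coding transcripts the sign turned for P2rx4 (0.031) and Enpp1 (-0.0079) between the primed groups and for Panx1 (0.17) in Tu-primed against parental cells. With a library left out, the sign of values that had not passed the test turned for Adora2b (-0.26 to 0.26 between the primed groups, -0.17 to 0.26 in Tu-primed and -0.23 to 0.32 in Spl-primed against parental cells), Enpp1 between the primed groups (-0.047 to 0.12), P2rx7 in Tu-primed (-0.021 to 0.16) and P2ry1 in Spl-primed against parental cells (-0.078 to 0.13). The cause was not tested. Of the 525 alternative values of the 8 tested genes, 491 kept direction and side of the threshold.

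Between libraries of equal replicate number, correlations of deviations from the group mean ran from -0.16 to 0.15. In Tu-primed against parental cells all of these were positive (0.084 to 0.15), while unequal numbers gave -0.22 to 0.14. Such a check cannot tell whether libraries share an animal or a batch. With a replicate block, 3 genes of the set and 7 of the list were called between the primed groups, 3 and 20 in Tu-primed and 3 and 22 in Spl-primed against parental cells. Of all 12555 tested genes the block called 488 higher and 256 lower between the primed groups. Against parental cells it called 3805 higher and 3389 lower in Tu-primed, and 3078 and 2701 in Spl-primed cells. Among the calls of the genes named by rule, those lost under the block were P2ry2 in Tu-primed against parental cells (adjusted p = 0.0608) and Adk between the primed groups (0.0733). Depth limits Adora2b and P2ry1 most, and Entpd1 and P2ry14 could not be compared.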
